A study of Arabidopsis thaliana with 36 samples.

Results

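Root hairs are tubular outgrowths of epidermal cells, and 10 genes of their development were followed among the 28775 genes of the count table. They were taken from the table by their gene identifiers: 4 basic helix-loop-helix (bHLH) regulators, RHD6, RSL1, RSL2 and RSL4, and 6 genes of the wall and of the oxidase that acts there, EXPA7, EXPA18, COBL9, LRX1, PRP3 and RHD2. All 10 passed the filter on low counts. The comparison of interest is that of roots of the Arabidopsis thaliana mutant opt3-2 with roots of the wild type Columbia-0, and leaves, which bear no root hairs, serve as the low reference. In opt3-2 roots RSL4 rose to 2.68 times its Columbia-0 level and RSL1, at very low levels, fell. No wall or oxidase gene passed the test in the fit without a replicate block. Of all genes tested 15.6% passed in that fit, and at 6 genes 0 is near that share. EXPA18 and PRP3 were lower in every opt3-2 root than in any Columbia-0 root, as were 16.5% of all genes tested. Both were called lower in the fit that pairs the root replicates by number (edgeR adjusted p = 0.0288 and 0.0259). That pairing was taken from these data and not from a stated design, and replicate number 2 did not stand out as paired. Without the pairing the same fit called neither (edgeR adjusted p = 0.0792 and 0.0741), and each was called in 4 of 16 alternatives.

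As background, RHD6 and RSL1 act early in the cells that will form hairs and are needed for the later regulators RSL2 and RSL4. RSL4 is known to set how long a hair grows, and it binds a short promoter motif, the root hair element, before genes of the growing wall. Those genes encode expansins, which loosen cell walls, extensin-like and proline-rich wall proteins, a lipid-anchored protein of the COBRA family, and the NADPH oxidase RHD2, whose reactive oxygen maintains growth at the tip.

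OPT3 is an oligopeptide transporter of the phloem that takes part in moving iron and signalling shoot iron status, and opt3-2 is an insertion allele with less OPT3 transcript. Plants of both genotypes grew for 11 days on plates and for 22 days in hydroponics, with a light period of 16 h and a dark period of 8 h, and each RNA sample came from 3 to 4 pooled plants. The medium is labelled as replete, but a treatment text carried by all samples names 72 h of 20 µM CdCl2; both genotypes carry the same wording, and the conflict was not settled. The groups are Columbia-0 root, opt3-2 root, Columbia-0 leaf and opt3-2 leaf, with 3 biological replicates each and 3 runs per replicate, which were summed. Levels are CPM, the reads of a gene per 1e+06 counted reads after TMM scaling, and a gene is called where edgeR's quasi-likelihood test gives an adjusted p under 0.05.

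Root replicates held 25828387 to 31065807 counted reads and leaf replicates 23981444 to 37685493. OPT3 itself fell in opt3-2 leaves, from 102 ± 23.8 to 19.4 ± 1.40 CPM (SD, n = 3; log2 fold change -2.40 ± 0.16 SE, edgeR adjusted p = 2.66e-06). In roots OPT3 was low, at 7.51 ± 0.798 CPM in the wild type and 5.64 ± 0.774 CPM in opt3-2 (SD, n = 3), and it was not called (edgeR adjusted p = 0.125). The organ labels were checked against markers: the summed level of 7 leaf mesophyll genes was 183 to 417 CPM in roots and 62500 to 79200 CPM in leaves. No genotype shares a full set of run numbers with the other in the column names, and run set and genotype cannot be told apart. Sets 5-7 and 2-4 were found only in Columbia-0, and set 1-3 only in opt3-2. Among the wild-type roots, only number 3 carried set 2-4. A covariate for run set, used in 1 alternative fit below, could thus be estimated only within Columbia-0. Calls kept or lost in that fit do not separate run set from genotype.

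The promoters below are shown because they place the element that RSL4 binds in front of the wall genes whose levels are compared with RSL4. Each is the 250 bases before the RefSeq gene start in TAIR10.1, on the gene's strand, and capitals mark a core hexamer read on either strand, in the form GCACGT, its variant form GCACGA, the further form TCACGT or the last form searched, TCACGA. EXPA7 lies at chr1:4276255-4276504, EXPA18 at chr1:23331313-23331562, LRX1 at chr1:4069742-4069991, PRP3 at chr3:23182472-23182721 and RSL4 at chr1:9654225-9654474, all on the plus strand.
EXPA7: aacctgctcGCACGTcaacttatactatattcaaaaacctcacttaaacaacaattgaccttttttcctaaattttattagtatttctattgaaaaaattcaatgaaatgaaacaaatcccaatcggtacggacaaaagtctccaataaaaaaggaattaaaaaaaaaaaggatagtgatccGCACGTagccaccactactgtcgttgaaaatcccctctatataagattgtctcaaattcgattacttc
EXPA18: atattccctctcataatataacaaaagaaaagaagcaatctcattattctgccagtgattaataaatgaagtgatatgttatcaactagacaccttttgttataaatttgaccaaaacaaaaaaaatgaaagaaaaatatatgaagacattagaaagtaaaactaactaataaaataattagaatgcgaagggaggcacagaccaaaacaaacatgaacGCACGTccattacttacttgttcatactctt
LRX1: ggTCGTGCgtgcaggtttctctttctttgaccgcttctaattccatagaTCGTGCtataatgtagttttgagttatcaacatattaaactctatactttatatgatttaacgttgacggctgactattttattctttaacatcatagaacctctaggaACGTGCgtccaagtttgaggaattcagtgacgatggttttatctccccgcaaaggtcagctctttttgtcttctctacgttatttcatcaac
PRP3: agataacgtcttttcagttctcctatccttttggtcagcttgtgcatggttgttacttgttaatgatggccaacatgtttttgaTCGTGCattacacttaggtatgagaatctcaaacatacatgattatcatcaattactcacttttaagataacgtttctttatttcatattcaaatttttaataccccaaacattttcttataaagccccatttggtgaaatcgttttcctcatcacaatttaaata
RSL4: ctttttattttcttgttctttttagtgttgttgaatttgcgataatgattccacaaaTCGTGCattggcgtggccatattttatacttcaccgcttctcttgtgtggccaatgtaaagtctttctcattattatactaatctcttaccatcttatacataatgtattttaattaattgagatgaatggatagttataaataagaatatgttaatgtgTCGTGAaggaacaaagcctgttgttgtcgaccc

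All 6 wall and oxidase genes had a core hexamer in this window, and 1 of the 4 regulators, RSL4, did. Over the 26709 nuclear protein-coding genes of the table the share was 17.9%. EXPA7 had 2 core hexamers, EXPA18 had 1, COBL9 had 3, LRX1 had 3, PRP3 had 1 and RHD2 had 1. The longer root hair element, which spans a core hexamer and the bases beside it, was found before EXPA7, EXPA18, LRX1 and PRP3, and in 0.760% of all these promoters. Of the 16 further wall genes of root hairs described below, 7 (43.8%) had a core hexamer and 4 (25.0%) the longer element. It began at base -78 of EXPA7 and at base -40 of EXPA18 on the gene's strand, and it covered bases -93 to -78 of LRX1 and -167 to -151 of PRP3 on the other strand. RSL4 carried core hexamers at -193 and -33, both on the other strand, and no longer element. The element was itself defined from root hair genes, some of them in this set, so these shares are a description of the set and not independent of how it was chosen. A match is not a binding site, and no binding was measured here.

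**Figure D1:**
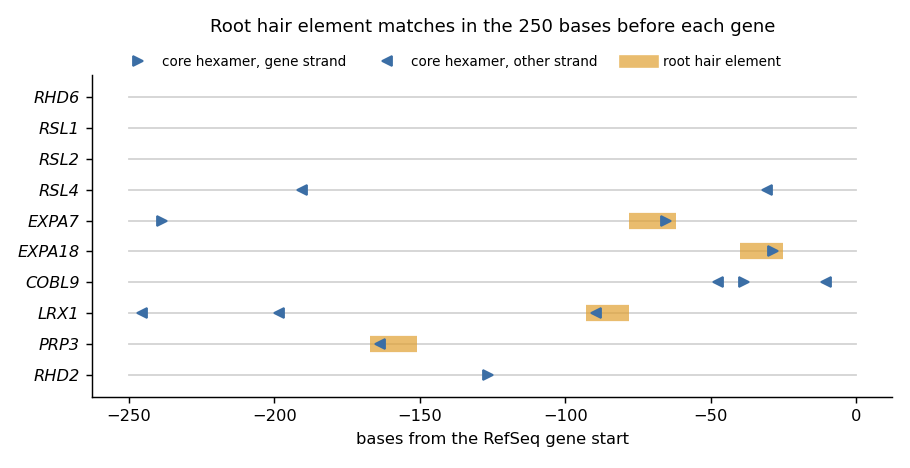
Positions of motif matches in the 250 bases before each gene, in bases from the RefSeq gene start. Triangles are core hexamers, pointing right on the gene's strand and left on the other, and bars are the longer root hair element: all 6 wall and oxidase genes hold a core hexamer, 4 of them within the longer element, and of the regulators only RSL4 holds one.

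Among the regulators, RSL4 showed the clearest difference. RSL4 (AT1G27740, a gene of 4 exons at chr1:9654475-9656089 on the plus strand) was counted at 4.05, 4.55 and 3.44 CPM in Columbia-0 roots 1 to 3 and at 9.67, 11.3 and 11.3 CPM in opt3-2 roots 1 to 3. All 3 opt3-2 roots lay above all 3 Columbia-0 roots, by more than the spread within either group. The means were 4.01 ± 0.555 and 10.8 ± 0.955 CPM (SD, n = 3), a log2 fold change of 1.42 ± 0.20 (SE) with an edgeR adjusted p of 0.00127. These levels rest on 140, 170 and 107 reads in Columbia-0 and 357, 352 and 367 reads in opt3-2. The call held in all 16 alternative settings and leave-one-out fits, with log2 fold changes from 1.32 to 1.64 and adjusted p-values from 2.24e-13 to 0.0145.

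RSL1, the close relative of RHD6 that acts with it before RSL4, went the other way at a level near the limit of detection. RSL1 (AT5G37800, chr5:15036066-15037884, plus strand) was counted at 0.637, 1.07 and 0.708 CPM in Columbia-0 roots and at 0.298, 0.225 and 0.185 CPM in opt3-2 roots. The groups did not overlap, and the Columbia-0 mean was 3.41 times the opt3-2 mean. RSL1 fell by 1.75 ± 0.34 on the log2 scale (SE, n = 3 per group, edgeR adjusted p = 0.0142), on 84 reads in all Columbia-0 roots against 24 in all opt3-2 roots. It was called in 12 of the 14 alternatives that tested it. The call was lost with the run-number set as a covariate (log2 fold change -1.56, edgeR adjusted p = 0.132) and without opt3-2 root replicate 2 (-1.71, edgeR adjusted p = 0.0522).

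RHD6 and RSL2 were not called. RHD6 (AT1G66470, chr1:24795214-24797015, plus strand), which starts the hair programme, was at 5.03, 6.16 and 5.27 CPM in Columbia-0 and at 4.87, 6.17 and 4.97 CPM in opt3-2 roots. The ranges of both groups coincide almost fully, and the log2 fold change was -0.04 ± 0.19 (SE, edgeR adjusted p = 0.914). RSL2 (AT4G33880, chr4:16239363-16241169, minus strand), which shares the later role of RSL4, was at 11.9, 16.1 and 12.2 CPM in Columbia-0 and at 13.9, 19.6 and 20.3 CPM in opt3-2 roots. The groups overlapped, since opt3-2 root 1 lay below Columbia-0 root 2. The log2 fold change of RSL2 was 0.42 ± 0.17 (SE, edgeR adjusted p = 0.125). Without opt3-2 root replicate 1 it was called, with a log2 fold change of 0.57 and an edgeR adjusted p of 0.0323, which makes it a value that 1 library decides.

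Ratios of reads within a library do not depend on how libraries are scaled, and they separated the regulators by genotype. The ratio of RSL4 to RSL2 reads was 0.340, 0.282 and 0.283 in Columbia-0 roots and 0.695, 0.577 and 0.559 in opt3-2 roots. The ratio of RSL1 to RHD6 reads was 0.126, 0.174 and 0.134 in Columbia-0 roots and 0.0611, 0.0365 and 0.0373 in opt3-2 roots. Neither ratio overlapped between genotypes. RSL4 and RSL1 alone did not overlap either. These pairs were chosen after the values were seen, so no test is given, and no share over other gene pairs was computed.

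**Figure D2:**
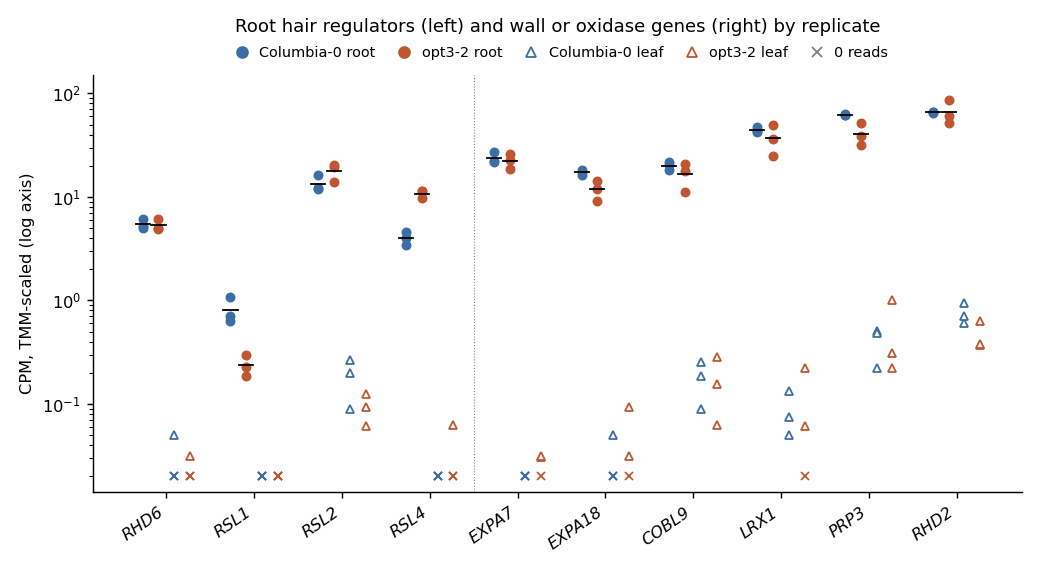
CPM of each gene in every replicate on a log axis, with circles for roots, triangles for leaves, crosses for 0 reads and short lines for root means (n = 3). RSL4 lies higher in opt3-2 than in Columbia-0 roots (10.8 against 4.01 CPM) and RSL1 lower (0.236 against 0.805 CPM), and all leaf values lie far below the root values of the same gene.

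The 6 wall and oxidase genes gave 0 calls with edgeR, against 15.6% of all genes tested (7.28% lower), and at 6 genes this is near that share. An unadjusted p under 0.05 was found for 2 of them, and DESeq2 called 1 and limma voom 2. In bulk roots, fewer hair cells and less RNA per hair cell cannot be told apart. PRP3 (AT3G62680, chr3:23182722-23184042, plus strand), a proline-rich protein of the hair wall, was at 61.2, 61.8 and 62.8 CPM in Columbia-0 and at 31.9, 38.9 and 51.9 CPM in opt3-2 roots. Every opt3-2 root lay below every Columbia-0 root, yet the opt3-2 values spread widely. The log2 fold change of PRP3 was -0.60 ± 0.23 (SE, edgeR adjusted p = 0.111). It was called in 4 of 16 alternatives, among them the fit with a replicate block (-0.63, edgeR adjusted p = 0.0259) and that without opt3-2 root replicate 3 (-0.81, edgeR adjusted p = 0.0173).

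EXPA7 and EXPA18 are expansins known as markers of hair cells. EXPA18 (AT1G62980, chr1:23331563-23333246, plus strand) was at 16.3, 18.2 and 17.4 CPM in Columbia-0 and at 9.23, 12 and 14.3 CPM in opt3-2 roots. The groups did not overlap. Its log2 fold change was -0.55 ± 0.19 (SE, edgeR adjusted p = 0.0764), and it too was called in 4 of 16 alternatives, with an edgeR adjusted p of 0.0288 under the replicate block and 0.0207 without opt3-2 root replicate 3. EXPA7 (AT1G12560, chr1:4276505-4277969, plus strand) was at 22.3, 27.4 and 21.5 CPM in Columbia-0 and at 18.5, 22.5 and 25.7 CPM in opt3-2 roots. Its groups overlapped, with a log2 fold change of -0.09 ± 0.15 (SE, edgeR adjusted p = 0.722), and none of the 16 alternatives called it. Both expansin genes overlap a gene on the other strand by 23 and 46 bases, and those neighbours had at most 0.0288 CPM on average in roots of either genotype.

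LRX1 (AT1G12040, chr1:4069992-4072681, plus strand, 1 exon), an extensin with leucine-rich repeats that shapes the hair wall, was at 42.2, 47.2 and 43.5 CPM in Columbia-0 and at 24.8, 36.3 and 50 CPM in opt3-2 roots. COBL9 (AT5G49270, chr5:19971884-19974530, minus strand), a COBRA-family protein needed for hair growth that RefSeq lists as SHV2, was at 18.3, 21.5 and 20.5 CPM in Columbia-0 and at 11.2, 17.9 and 21.0 CPM in opt3-2 roots. In both, opt3-2 roots 1 and 2 lay below all Columbia-0 roots, and opt3-2 root 3 lay within or above them. Log2 fold changes were -0.26 ± 0.23 for LRX1 (SE, edgeR adjusted p = 0.500) and -0.27 ± 0.21 for COBL9 (SE, edgeR adjusted p = 0.441). RHD2 (AT5G51060, chr5:20757199-20762461, minus strand), the oxidase, was at 65.7, 64.2 and 66.8 CPM in Columbia-0 and at 51.7, 60.7 and 86.1 CPM in opt3-2 roots. Its opt3-2 values lay on both sides of the Columbia-0 values, and its log2 fold change was 0.01 ± 0.16 (SE, edgeR adjusted p = 0.978), with a sign that turned in 5 of 16 alternatives, to -0.22 without opt3-2 root replicate 3.

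**Figure D3:**
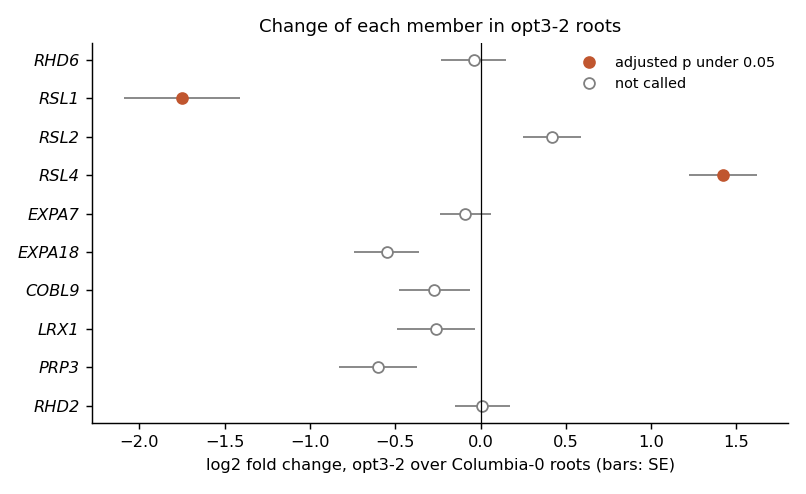
Log2 fold change of each gene, opt3-2 over Columbia-0 roots, with bars for 1 SE from the edgeR fit (n = 3 per group). RSL4 at 1.42 and RSL1 at -1.75 are called and filled, and the 6 wall and oxidase genes lie between -0.60 and 0.01 with none called. Of all genes tested, 15.6% are called.

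Of the 10 genes, 1 was called higher and 1 lower, against 15.6% of all 21692 genes tested (8.28% higher and 7.28% lower). The replicates did not overlap for 4 of the 10, RSL4 higher and RSL1, EXPA18 and PRP3 lower, against 31.5% of all genes tested. At 10 genes, neither share stands far from that of all genes. The median log2 fold change over the 10 was -0.18, and over all genes tested it was -0.0006.

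What the wall and oxidase genes shared was their order among the opt3-2 roots. They also spread more widely there than in Columbia-0, but EXPA7 hardly did (SD 3.63 CPM in opt3-2 and 3.21 CPM in Columbia-0 roots, n = 3). Set to 100% at the Columbia-0 mean, the Columbia-0 roots held each gene between 90.5% and 115%. In opt3-2 root 1 the values ran from 51.5% for PRP3 to 78.9% for RHD2, in opt3-2 root 2 from 62.8% for PRP3 to 95% for EXPA7, and in opt3-2 root 3 from 82.7% for EXPA18 to 131% for RHD2. All 6 genes were thus lowest in opt3-2 root 1 and highest in opt3-2 root 3. Among the 18905 genes tested with a mean of at least 1 CPM in roots, 37.6% were lowest in opt3-2 root 1 and 35.5% were highest in opt3-2 root 3. The share of genes with both was not counted. RSL4 too was lowest in opt3-2 root 1, but over a narrower range, with opt3-2 roots 2 and 3 at the same level.

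The summed CPM of the 6 genes was 226, 240 and 232 CPM in Columbia-0 roots and 147, 188 and 249 CPM in opt3-2 roots. Marker sums of other tissues are given beside it. The 7 leaf mesophyll markers summed to 305, 183 and 264 CPM in Columbia-0 roots and to 417, 256 and 206 CPM in opt3-2 roots, so among opt3-2 roots they were highest where the wall genes were lowest. The 5 endodermis genes CASP1 to CASP5 summed to 127, 187 and 144 CPM in Columbia-0 roots and to 102, 141 and 150 CPM in opt3-2 roots. Among opt3-2 roots these endodermis genes had the order of the wall genes. The 5 xylem markers summed to 374, 371 and 316 CPM in Columbia-0 and to 239, 264 and 317 CPM in opt3-2 roots, with the order of the wall genes in opt3-2 but not in Columbia-0. Root meristem markers summed to 61.2, 64.8 and 56.8 CPM and phloem markers to 224, 206 and 211 CPM in opt3-2 roots, not in the order of the wall genes, against 52.1 to 61.6 and 178 to 200 CPM in Columbia-0. Root cap markers summed to 11.7 to 13.8 CPM in Columbia-0 and to 13.5 to 14.7 CPM in opt3-2 roots. The part of any of these in the spread of the wall genes was not tested.

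**Figure D4:**
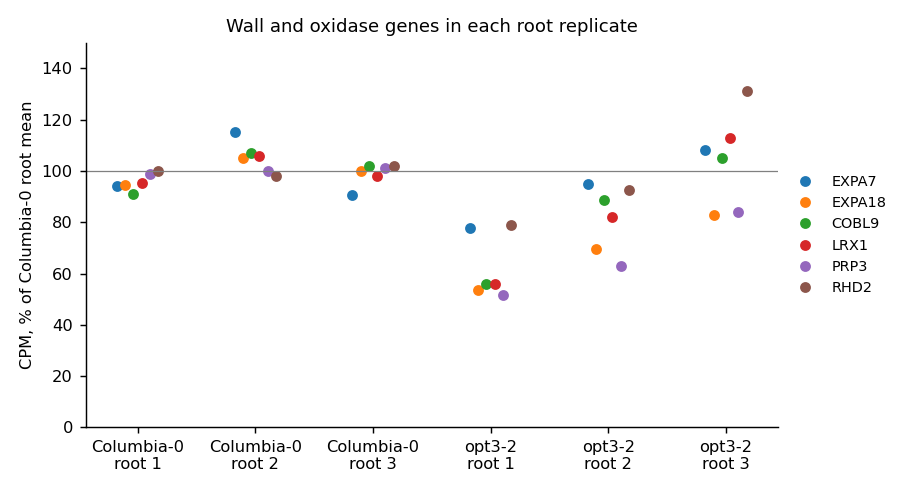
CPM of the 6 wall and oxidase genes in each root replicate, as a percentage of the gene's own Columbia-0 root mean (line at 100%). Columbia-0 roots stay between 90.5% and 115%, while opt3-2 root 1 reaches down to 51.5% (PRP3) and opt3-2 root 3 up to 131% (RHD2).

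Within a library, the reads of 2 pairs of wall genes stood in a different ratio in each genotype. The ratio of PRP3 to RHD2 reads was 0.931, 0.963 and 0.939 in Columbia-0 roots and 0.616, 0.641 and 0.603 in opt3-2 roots. The ratio of EXPA18 to EXPA7 reads was 0.733, 0.663 and 0.808 in Columbia-0 roots and 0.499, 0.534 and 0.556 in opt3-2 roots. Both ratios were lower in every opt3-2 root than in any Columbia-0 root, also in opt3-2 root 3, where the summed level of the 6 genes was the highest of all roots. These pairs were also chosen after the values were seen, and no test and no share over other gene pairs is given.

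Compared per kilobase of transcript, PRP3 was the most abundant of the 10 in Columbia-0 roots, at 50.7 ± 0.641 CPM per kb (SD, n = 3). EXPA7 followed at 21.2 ± 2.87, RHD2 at 19.9 ± 0.400, LRX1 at 16.5 ± 0.954 and EXPA18 at 13.8 ± 0.731 CPM per kb. RSL2 at 9.72 ± 1.71 and COBL9 at 8.89 ± 0.718 CPM per kb came next, then RHD6 at 3.85 ± 0.414, RSL4 at 3.00 ± 0.415 and RSL1 at 0.590 ± 0.171 CPM per kb. The neighbours EXPA7 and RHD2, and RSL2 and COBL9, overlapped between replicates. In opt3-2 roots PRP3 still led at 33.5 ± 8.33 CPM per kb, and RSL4 stood at 8.05 ± 0.714, above RHD6 at 3.74 ± 0.504 and COBL9 at 7.39 ± 2.21 CPM per kb, the last within its spread.

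Across the 6 root replicates the log2 CPM of wall and oxidase genes varied together. Over their 15 pairs Pearson's r ran from 0.54 for RHD2 with EXPA18 to 0.99 for PRP3 with EXPA18, with a median of 0.84. Between RSL4 and the 6 genes r ran from -0.78 with PRP3 to 0.02 with RHD2, with a median of -0.37. RSL4 and RSL1 gave -0.92, and RSL4 and RSL2 gave 0.79. These values describe 6 libraries that fall into genotypes, so a difference between genotypes contributes to each of them.

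In leaves the 10 genes were close to absent. RSL1 had 0 reads in all 6 leaf replicates, RSL4 had 0 in Columbia-0 and 2 in opt3-2, EXPA7 had 0 and 2, RHD6 had 1 and 1, and EXPA18 had 1 and 4. LRX1 had 6 and 9 reads, COBL9 12 and 16, RSL2 13 and 9, PRP3 28 and 49, and RHD2 52 and 44, in the summed leaves of Columbia-0 and opt3-2. The level of EXPA7 in Columbia-0 roots was at least 550-fold higher than in leaves, that of RSL4 at least 93.1-fold and that of RSL1 at least 18.7-fold, taking 3 reads over the leaf group as the floor. Where leaves had reads, the Columbia-0 root level ran from 71.7-fold the leaf level for RSL2 (exact 95% counting interval 41.8 to 135) to 1190-fold for EXPA18 (214 to 47200). Floors and intervals cover counting error only. All 10 were called lower in leaf than in root of Columbia-0, against 41.2% of all genes tested (77.4% in either direction and 36.2% higher). PRP3 and RHD2 also passed the filter with the leaf libraries alone. The others had passed it only through their roots and so had to differ. All 10 were picked as root hair genes, so the count is a description.

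None of the 10 was called between opt3-2 and Columbia-0 leaves, where 28.1% of all genes tested were called. No member had an unadjusted p under 0.05 in leaves, and DESeq2 and limma voom also called 0. For the genes with a few reads per group, a difference between leaves was not detectable at this depth. RHD2, the gene with the most leaf reads in Columbia-0, had a log2 fold change of -0.71 ± 0.36 (SE, edgeR adjusted p = 0.169), and PRP3 had 0.33 ± 0.58 (SE, edgeR adjusted p = 0.725).

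Other genes sort epidermal cells into hair and non-hair files. Of 11 such genes edgeR called 0 in roots, against 15.6% of all genes tested, and at 11 genes this is not far from that share. An unadjusted p under 0.05 was found for 2 of them, while DESeq2 and limma voom called 0, and the median log2 fold change was 0.01. The most abundant by read count were JKD, a zinc finger protein that positions the pattern, with a log2 fold change of -0.13 ± 0.10 (SE, edgeR adjusted p = 0.414), and TTG1, a scaffold of the patterning complex, with -0.10 ± 0.05 (SE, edgeR adjusted p = 0.230). GL2, which represses RHD6 and RSL1 in non-hair cells, was at 9.81 ± 0.757 CPM in Columbia-0 roots and 9.77 ± 0.935 CPM in those of opt3-2 (SD, n = 3). CPC, which moves between cells to promote the hair fate, was at 2.20, 3.00 and 3.15 CPM in Columbia-0 and at 4.36, 3.05 and 5 CPM in opt3-2 roots, with overlap. Its log2 fold change was 0.57 ± 0.21 (SE, edgeR adjusted p = 0.0902), and 1 of 16 alternatives called it. EGL3, a bHLH partner in the patterning complex, was lower without overlap, at 6.45 ± 0.237 and 5.37 ± 0.424 CPM (SD, n = 3; edgeR adjusted p = 0.151). GL2, CPC and EGL3 lie outside the naming rule and were picked after their values were seen.

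Of 5 other bHLH genes of the RSL and LRL groups, 4 were tested and 1 was called, against 15.6% of all genes tested. LRL1, which promotes hair growth, was at 46.4, 47.2 and 44.4 CPM in Columbia-0 and at 66.3, 71.9 and 58.8 CPM in opt3-2 roots. It rose without overlap, by a log2 fold change of 0.51 ± 0.07 (SE, edgeR adjusted p = 7.36e-04), and was called in all 16 alternatives. Its relative LRL3 was at 26.2 ± 3.38 and 22.5 ± 4.12 CPM (SD, n = 3; edgeR adjusted p = 0.345). AT2G14760, of the same group as RSL4 and picked after its values were seen, was at 1.24, 1.47 and 1.13 CPM in Columbia-0 and at 0.352, 0.706 and 0.741 CPM in opt3-2 roots. It was not called, with a log2 fold change of -1.11 ± 0.31 (SE, edgeR adjusted p = 0.0522). The median log2 fold change of the 4 was -0.26.

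Among 11 hormone genes and regulators known to act before RSL4, 2 fell and none rose, against 7.28% lower and 8.28% higher of all genes tested, and the median log2 fold change was -0.15. At 11 genes this count is near that background. AUX1, the auxin influx carrier that brings auxin to the hair zone, was at 234, 234 and 235 CPM in Columbia-0 and at 167, 172 and 191 CPM in opt3-2 roots. It fell by 0.41 ± 0.06 on the log2 scale (SE, edgeR adjusted p = 0.00113). ARF19, an auxin response factor that promotes RSL4, was at 39.7, 38.8 and 39.2 CPM in Columbia-0 and at 28.2, 31.7 and 33.5 CPM in opt3-2 roots. It fell by 0.33 ± 0.07 on the log2 scale (SE, edgeR adjusted p = 0.0111). Neither gene overlapped between genotypes, and both were called in all 16 alternatives. AUX1 and ARF19 were thus lower in the same roots in which RSL4 was higher, and a link between them was not tested. The other 9 genes of the list were not called, and of all 11 estimates 8 were below 0 and 3 above. Without overlap, 4 of the 11 were lower and 1 higher, against 16.5% and 15.0% of all genes tested. AT1G76880, picked after its values were seen, was among those lower, at 5.05 and 3.74 CPM on average (edgeR adjusted p = 0.0628). The list was not split into genes that promote and genes that repress RSL4, so its median and signs have no single reading.

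Of 19 genes of hair initiation, signalling and tip growth, 1 rose and 1 fell, which is at or below the 15.6% called of all genes tested, and the median log2 fold change was -0.16. At an unadjusted p under 0.05 the count was 6, while DESeq2 called 2 and limma voom 4. Estimates below 0 were found for 14 of the 19, as for 50.1% of all genes tested. Without overlap 5 were lower and 1 higher, against 16.5% and 15.0% of all genes tested. AHA7, a plasma membrane proton pump of hair cells that is also known from the iron deficiency response, was at 62.7, 64.5 and 68.5 CPM in Columbia-0 and at 142, 195 and 209 CPM in opt3-2 roots. It rose by a log2 fold change of 1.48 ± 0.16 (SE, edgeR adjusted p = 9.09e-05), close in size to the change of RSL4, and in all 16 alternatives. RHD1, which makes UDP-galactose for wall polymers, fell by 0.36 ± 0.07 on the log2 scale (SE, edgeR adjusted p = 0.00700), from 38.2 ± 2.90 to 29.8 ± 2.56 CPM (SD, n = 3). Its call was lost with only the 2 root groups in the fit (adjusted p = 0.0506) and with the run-number set as a covariate (adjusted p = 0.0574).

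Of 16 further wall genes of root hairs, 3 fell and none rose, a share near the 15.6% called of all genes tested (7.28% lower). The median log2 fold change was -0.26, and 13 of the 16 estimates were below 0, as were 50.1% of those of all genes tested. XTH26, a xyloglucan-modifying enzyme, was at 7.03, 7.87 and 8.49 CPM in Columbia-0 and at 2.49, 2.22 and 5.62 CPM in opt3-2 roots. It fell by 1.18 ± 0.30 on the log2 scale (SE, edgeR adjusted p = 0.0223). RHS18, a peroxidase, fell by 0.89 ± 0.27 (SE, edgeR adjusted p = 0.0431), from 9.20 ± 0.859 to 4.97 ± 1.70 CPM (SD, n = 3). RHS12, a pectin methylesterase, fell by 0.68 ± 0.20 (SE, edgeR adjusted p = 0.0372), from 13.7 ± 1.55 to 8.57 ± 1.88 CPM (SD, n = 3). No replicate of the 3 genes overlapped between genotypes, but they were named because they were called. Over the 16 genes 5 were lower and 0 higher without overlap, against 16.5% and 15.0% of all genes tested.

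These 3 calls changed with the setting: XTH26 was called in 10 of 16 alternatives, RHS12 in 9 and RHS18 in 8. Over the 16 genes edgeR called 8 without opt3-2 root replicate 3, 1 without opt3-2 root replicate 2, 1 without Columbia-0 root replicate 1, and 0 without opt3-2 root replicate 1, without Columbia-0 root replicate 2, without Columbia-0 root replicate 3 and with the run-number set as a covariate. All 16 were highest in opt3-2 root 3 and 14 were lowest in opt3-2 root 1, the same order as the 6 members. CSLD2, a cellulose synthase-like protein of the hair tip, and SHV3, a lipid-anchored wall protein, were picked after their values were seen as the widest examples. CSLD2 was at 105, 128 and 246 CPM and SHV3 at 88.7, 101 and 245 CPM in opt3-2 roots 1 to 3. In Columbia-0 roots 1 to 3 CSLD2 was at 119, 113 and 129 CPM and SHV3 at 105, 102 and 137 CPM, also highest in root 3. The 16 genes summed to 935, 1050 and 1120 CPM in Columbia-0 roots and to 754, 862 and 1430 CPM in opt3-2 roots. These sums rose from replicate 1 to replicate 3 in both genotypes, more widely in opt3-2.

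**Figure D5:**
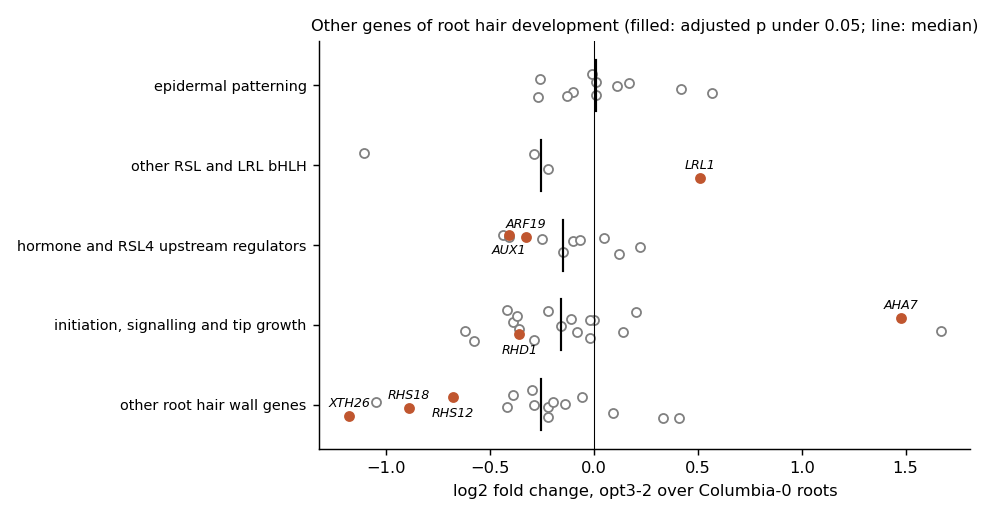
Log2 fold change, opt3-2 over Columbia-0 roots, of each tested gene in 5 further lists of root hair development, with called genes filled and named and a vertical line at each list's median. LRL1 and AHA7 are called higher and AUX1, ARF19, RHD1, XTH26, RHS12 and RHS18 lower, and no gene of epidermal patterning is called. Of all genes tested, 15.6% are called.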

How the data were processed

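Illumina TruSeq libraries were made from root and leaf RNA, per the labels' protocols. The submitters' processing notes name TopHat2, edgeR and the TAIR10 build. They give no versions, and the counting program and the use of strand are not stated in what was read here. The authors deposited raw whole-number counts of reads per gene for 28775 genes, with no normalization. Of 72 columns, 36 match sample titles and 36 do not and were not used. An S in a column name was read as leaf. The 3 runs of a replicate differed by little more than sampling noise (chi-square per degree of freedom 1.02 to 1.07, against 3.26 to 77.8 between biological replicates) and were summed. Whether the replicates were separate cultures is not in the labels, and p-values then measure only the spread between these samples, which may be technical.

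From these counts edgeR 4.0.16 (R 4.3.3) was run with TMM factors of 0.828 to 1.21 on the 21692 genes that filterByExpr kept. A single quasi-likelihood fit over 4 groups had 8 residual degrees of freedom and a common biological coefficient of variation of 0.137, and p-values were adjusted by Benjamini-Hochberg over all genes tested, with a threshold of 0.05. Standard errors were taken as the ratio of the log2 fold change to the root of its F value. Correlations used log2 CPM with a prior count of 2. Alternatives were DESeq2 1.42.0, limma voom (limma 3.58.1), other scalings, filters, sample sets and covariates, and leaving out each replicate. The run-number covariate did not adjust for a difference in run set between genotypes, since no set occurs in both.

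Same-numbered root replicates of the genotypes deviated together for numbers 1 and 3 (r of 0.466 and 0.460, against at most -0.200 and 0.0760 with other numbers). Number 2 did not stand out (0.157, against at most 0.182). The root numbers were still taken as paired in the replicate block, on the data and not on a stated design. Leaf numbers were not (r of -0.0722, -0.0393 and 0.00685). The members and the gene lists were chosen with earlier results of these data known. Beside the members, the text names up to 4 called genes per list with the lowest adjusted p, or the 2 most abundant where fewer than 2 were called, the 5 genes most like RSL4 and EXPA7 over roots, and OPT3. Symbols and coordinates come from RefSeq's TAIR10.1 annotation, which matched 28009 identifiers and not 766; its nuclear chromosomes are those of TAIR10. Of all 50-base windows of the members' transcripts, 1 of RSL2 recurs in another gene, AT2G14760.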

Additional observations from a re-analysis of the deposited data

How the results depend on the processing

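In roots edgeR called 3377 genes. It called 1973 with only the 2 root groups in the fit, 1632 with the run-number set as a covariate, and 2074 to 4231 when 1 root replicate was left out (2074 without Columbia-0 root replicate 2, 2237 without Columbia-0 root replicate 1). Of the 10 root hair genes 2 were called, against 4 with limma voom, 3 with DESeq2, 1 with the filter of at least 1 CPM in 3 replicates (which left RSL1 untested), 1 with the run-number covariate, and 1 to 4 when 1 replicate was left out. With the replicate block, 4 were called: RSL4 at a log2 fold change of 1.41 (edgeR adjusted p = 0.00113), RSL1 at -1.73 (0.0228), EXPA18 at -0.57 (0.0288) and PRP3 at -0.63 (0.0259). The replicate block called 2383 of 20428 genes tested, 2010 of them shared. Over the genes named in roots, 650 values kept their direction and their side of the threshold, 15 gained a call, 34 lost one, and 19 of uncalled genes changed sign. Those were RHD2 (0.01; -0.02 with upper-quartile factors, limma voom and the run-number covariate, -0.03 with the replicate block, -0.22 to 0.16 when 1 replicate was left out), RHD6 (0.09 with the lowest run, -0.16 to 0.05 leaving out 1), EXPA7 (0.05 with the run-number covariate, -0.21 to 0.02), EHD2 (0.06 with that covariate, -0.11 to 0.02), BRN2 (-0.10 with that covariate), MPK20 (-0.09 to 0.02), AT5G47540 (-0.11 to 0.04) and LHCB1.3 (-0.35 to 0.73). No member was called between leaves under the alternatives that tested it, but 13 values changed sign: EXPA18 (-0.36), COBL9 (0.75) and LRX1 (-0.44) with the lowest run, LRX1 (-0.66) with limma voom, and RHD6 (-2.23 to 1.87), COBL9 (-0.69 to 0.28), LRX1 (-1.41 to 0.62) and PRP3 (-0.65 to 0.64) when 1 replicate was left out. The cause was not tested. Genes with few reads, such as RSL1, limit what the depth can show.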

Other observations

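The lists of other root tissues and of leaf cells gave few calls in opt3-2 roots, where 15.6% of all genes tested were called. At 4 to 7 genes per list, such counts do not stand apart from that share. SUC2, the sucrose carrier of phloem companion cells, rose from 45.2 ± 4.49 to 62.7 ± 2.78 CPM (SD, n = 3), a log2 fold change of 0.47 ± 0.08 (SE, edgeR adjusted p = 0.00252), and was the 1 of 4 phloem markers called. Beside it SEOR1, a sieve element protein, had a log2 fold change of 0.15 ± 0.12 (SE) and was not called. The photosystem gene PSAD2, 1 of 7 leaf markers, rose from 3.41 ± 0.552 to 5.03 ± 1.34 CPM (SD, n = 3; log2 fold change 0.57 ± 0.17 SE, edgeR adjusted p = 0.0400), but in only 7 of 16 alternatives. The antenna genes LHCB1.3 (0.32 ± 0.40) and LHCA4 (0.33 ± 0.19) were not called.

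EdgeR called 0 of 5 endodermis, 0 of 5 meristem, 0 of 4 root cap and 0 of 5 xylem markers, against 15.6% of all genes tested. At an unadjusted p under 0.05 these counts were 0, 0, 0 and 3, and for xylem DESeq2 called 1 and limma voom 2, while both called 0 in the other lists. Median log2 fold changes were -0.22, 0.09, 0.17 and -0.43 in that order. Of the most abundant, CASP1 had -0.22 ± 0.19 and CASP2 -0.22 ± 0.18, KNOLLE 0.20 ± 0.13 and CDKB2-1 0.09 ± 0.14, SMB 0.30 ± 0.20 and BRN2 0.18 ± 0.18, and XCP1 -0.21 ± 0.12 (log2 fold change ± SE). CESA4, a cellulose synthase of secondary walls, had -0.45 ± 0.14 (SE, edgeR adjusted p = 0.0561) and was called in 4 of 16 alternatives.

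The genes whose log2 CPM followed RSL4 most closely over the 6 root replicates were ORS1 (Pearson's r = 0.9996), AT5G46230 (0.9992), MLO6 (0.999), CCOAMT (0.9989) and AT4G17680 (0.9984). They were picked as the highest of 18905 genes over 6 libraries, where values near 1 arise easily. Over all 12 replicates r was 0.965, 0.881, 0.522, -0.5 and 0.498 for the same genes. ORS1 resembled RSL4 in both, at 0.491 ± 0.0720 CPM in roots of Columbia-0 and 1.52 ± 0.149 CPM in those of opt3-2 (SD, n = 3; edgeR adjusted p = 1.74e-04) and at 0.0715 and 0.104 CPM in their leaves. AT4G17680 had the largest change of the 5, from 0.832 ± 0.541 to 69.5 ± 15.0 CPM (SD, n = 3; log2 fold change 6.34 ± 0.32 SE, edgeR adjusted p = 1.53e-07). For EXPA7 the closest were MPK20 (0.9936), EHD2 (0.9926), AT5G47540 (0.9903), MYB55 (0.9901) and HB-3 (0.99), with 0.884, 0.869, -0.098, 0.591 and 0.984 over all 12. HB-3, a homeobox gene, was at 16.8 ± 2.78 CPM in roots of Columbia-0 and 14.9 ± 3.07 CPM in those of opt3-2, and at 1.57 and 1.33 CPM in their leaves (SD for roots, n = 3).

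OXI1, a kinase that hair growth needs and that was picked after its values were seen, had 1.94, 3.24 and 10.3 CPM in Columbia-0 roots and 3.55, 5.52 and 39.9 CPM in opt3-2 roots. It was highest in replicate 3 of both genotypes, and its log2 fold change of 1.67 ± 0.80 (SE) was not called (edgeR adjusted p = 0.192).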
